A study of Daphnia magna with 3 samples.

Results

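The haem synthesis and iron handling genes of the water flea Daphnia magna were described in 3 RNA sequencing libraries. Members were the gene records whose deposited description named a haem precursor enzyme, ferrochelatase, heme oxygenase, ferritin, transferrin or mitoferrin. The search words found 35 of 47109 records. Of these, 3 were matched only because the word "transferring" contains "transferrin", and the other 32 were haem and iron records: 15 of haem synthesis enzymes, 1 heme oxygenase, 14 ferritins and 2 transferrins. No description held the words mitoferrin or hydroxymethylbilane. Overlapping records joined, the 32 records stood for 23 loci on 17 scaffolds.

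All libraries came from the same group, wild type NIES strain females that were 12 days old and had just released their second clutch. Each library pooled 5 whole animals after their eggs were flushed out. The animals were fed at the nutrient rich level of the study, which used these libraries as its wild type reference. The series holds no other genotype, treatment or age, so the comparisons below are between genes and between replicate libraries. NIES is a clone kept by parthenogenesis, so the animals of all pools share their genotype. The labels only number the libraries, so that differences between pools and between library preparations cannot be told apart.

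Haem is built from glycine and succinyl-CoA in a chain of enzymes that begins and ends in the mitochondrion, with ALA (5-aminolevulinate) synthase as the first step and ferrochelatase, which inserts iron, as the last. In Daphnia, haem is needed in bulk for haemoglobin, the oxygen carrier dissolved in the haemolymph, which these animals raise when oxygen falls. Ferritin stores iron inside a protein shell, transferrin binds it outside cells, and heme oxygenase opens the haem ring and frees the iron again.

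Depth was even, with 8843488, 8679171 and 9092389 counts in replicates 1, 2 and 3. Replicate 1 stands apart more often than the others, being at least 2-fold below both in 2.33% of 8976 records, against 0.301% for replicate 2 and 1.08% for replicate 3. Markers of body parts were present as the whole-body label requires, with counts for 19 of 19 vitellogenin (yolk), 52 of 72 trypsin (gut) and 6 of 8 myosin heavy chain (muscle) records. Summed TPM of vitellogenin was 72069.6, 84690.3 and 44316.6 in replicates 1, 2 and 3, that of trypsin 10074, 10649 and 11195, and that of myosin heavy chain 1071, 1003 and 877. Fewer cells of a type and less RNA per cell cannot be told apart in these whole-body libraries.

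Levels of different genes are given as TPM, a transcript abundance that is corrected for gene length and scaled to the same total in every library. A gene of this group was typically well expressed. The median of the mean TPM was 70.0 over the 20 members with a mean count of at least 10, against 10.8 over all 15516 records that passed this filter. Of the remaining 12 members, 10 had no count in any library and 2 ferritin records had 0 to 2 counts. A count of 0 allows up to 0.354, 0.353 and 0.309 CPM (counts relative to a library size adjusted by the trimmed mean of M-values, TMM) in replicates 1, 2 and 3, and this limit covers counting error only. Of the 10 records at 0, 7 were parts of gene models that the annotation had split, and each overlaps another record. The other 3 were a further ALA dehydratase record (scaffold00006) and a pair of Ferritin-like protein records.

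Each of the 8 enzymatic steps was represented by at least 1 expressed record, over a wide range of levels. The first step, ALA synthase, which sets the pace of the pathway in animals, had 165.6, 132.2 and 157.3 TPM in replicates 1, 2 and 3 in its main record (Dapma7bEVm002278sc03276NoSplit, scaffold03276, 351594 to 355373, minus strand). Its level was thus 152 ± 17.4 TPM (SD, n = 3). A second model of the same locus is split into 2 overlapping records at 120 ± 18.0 and 112 ± 16.1 TPM, and the counting may have divided reads among the 3. Together they held 4999, 4242 and 4644 counts.

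ALA dehydratase (Dapma7bEVm006576sc03135NoSplit, scaffold03135, 144388 to 147241, minus strand), which joins ALA molecules into the pyrrole porphobilinogen, stood much lower, at 21.1, 20.7 and 26.9 TPM. Porphobilinogen deaminase (Dapma7bEVm010509sc00024NoSplit, scaffold00024, 2432977 to 2434659, plus strand), which links these pyrroles into a chain, had 96.5, 104 and 119 TPM. Uroporphyrinogen-III synthase (Dapma7bEVm002875sc00512NoSplit, scaffold00512, 1511119 to 1512371, plus strand), which closes the ring, was the lowest of the steps, with 7.28, 8.04 and 7.42 TPM from 54, 60 and 60 counts. In the main records of these 4 steps the libraries stayed within 1.30-fold of each other in TPM.

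Uroporphyrinogen decarboxylase, which trims the side chains of the ring, behaved differently. Its only record (Dapma7bEVm001261sc02385NoSplit, scaffold02385, 473371 to 475484, minus strand) had 993, 3586 and 3432 counts in replicates 1, 2 and 3. This corresponded to 79.4, 285 and 252 TPM, so that replicate 1 was low and replicates 2 and 3 were close to each other.

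Downstream of it, coproporphyrinogen oxidase (Dapma7bEVm000560sc02008Split02, scaffold02008, 946 to 3296, minus strand) had 69.2, 86.2 and 102 TPM. Protoporphyrinogen oxidase (Dapma7bEVm010840sc00443NoSplit, scaffold00443, 21127 to 23169, minus strand), which gives the porphyrin its final oxidation, had 32.3, 42.4 and 35.7 TPM. Ferrochelatase (Dapma7bEVm002381sc01253Split02, scaffold01253, 202241 to 204326, plus strand) had 100.8, 93.6 and 119 TPM. A second ferrochelatase model overlapping it (Dapma7bEVm027702sc01253Split02) received 8.10 ± 1.30 TPM, and the split-off parts of both models received no count. The widest range among the main records of these last steps was the 1.48-fold of coproporphyrinogen oxidase in TPM.

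**Figure D1:**
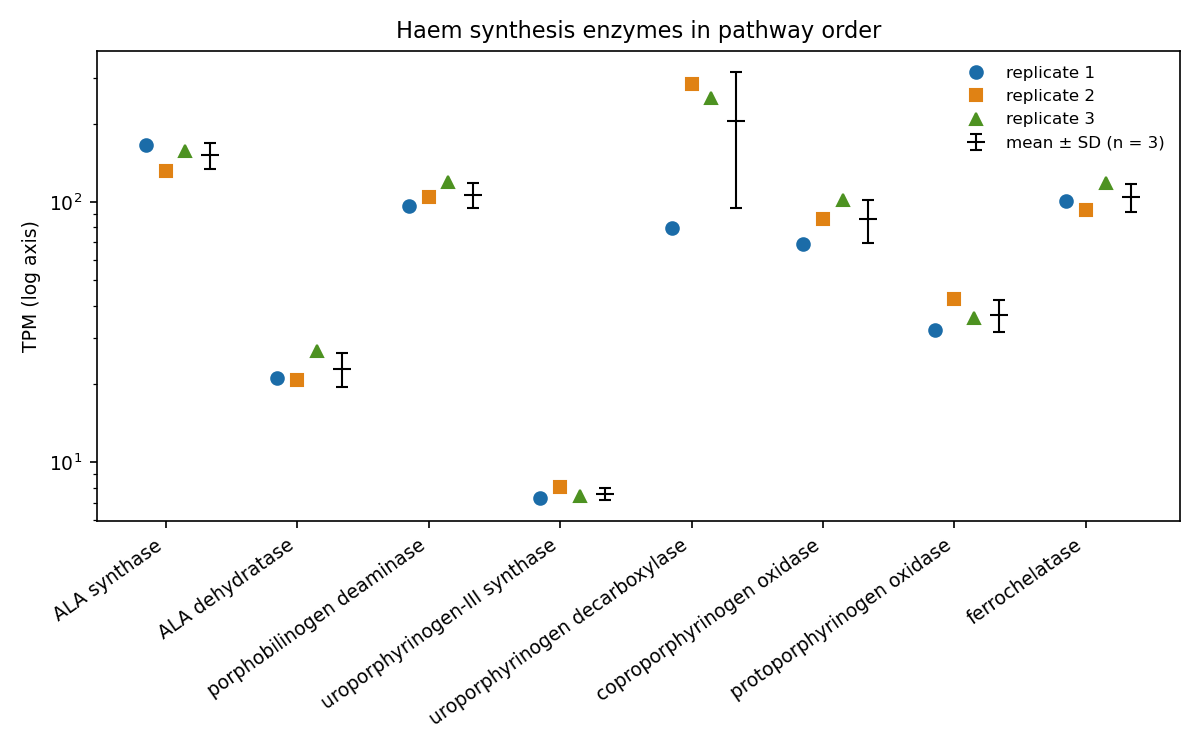
TPM of the most abundant record of each haem synthesis enzyme, in pathway order, on a log axis. Coloured points are the 3 libraries, and the black dash and bar are the mean and SD. Uroporphyrinogen decarboxylase spreads from 79.4 to 285 TPM, and the next widest range is the 1.48-fold of coproporphyrinogen oxidase in TPM.

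By mean TPM the order of the steps was uroporphyrinogen decarboxylase (205 ± 110), ALA synthase (152 ± 17.4), porphobilinogen deaminase (107 ± 11.7), ferrochelatase (104 ± 13.0), coproporphyrinogen oxidase (85.8 ± 16.4), protoporphyrinogen oxidase (36.8 ± 5.16), ALA dehydratase (22.9 ± 3.47) and uroporphyrinogen-III synthase (7.58 ± 0.406; all TPM, SD, n = 3). In each library the last 4 of these held the same places, and the highest step exceeded the lowest by 22.7-fold, 35.4-fold and 33.9-fold in replicates 1, 2 and 3. Neighbours in the order were compared by their log2 ratio within libraries. Coproporphyrinogen oxidase exceeded protoporphyrinogen oxidase by 1.21 ± 0.26, protoporphyrinogen oxidase exceeded ALA dehydratase by 0.69 ± 0.32, and ALA dehydratase exceeded uroporphyrinogen-III synthase by 1.58 ± 0.25 (log2, SD over 3 libraries). The differences of ALA synthase over porphobilinogen deaminase (0.51 ± 0.24) and of ferrochelatase over coproporphyrinogen oxidase (0.29 ± 0.22) also exceeded their spread. These 5 differences had the same direction in every library. The order was taken from the mean TPM of these same libraries, so their direction was partly set in advance. By exact sign-flip permutation (two-sided) each of the 5 had p = 0.25, which is as low as 3 libraries allow, and 0.35 after adjustment over the 7 pairs. These p-values are thus no independent test of the order.

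The other 2 pairs did not differ beyond their spread. Porphobilinogen deaminase and ferrochelatase differed by 0.03 ± 0.11 on the log2 scale. Uroporphyrinogen decarboxylase led ALA synthase by 1.11 and 0.68 in replicates 2 and 3 but lay below it, at -1.06, in replicate 1 (mean 0.24 ± 1.15, exact sign-flip permutation p = 0.75). By main records it ranked first of the 8 steps in replicates 2 and 3 and was number 4 in replicate 1. With the overlapping records of each step summed it lay below ALA synthase in every library (mean log2 ratio -1.10), a sum that takes in 3 overlapping ALA synthase records. Without replicate 1 its mean was 268 TPM. The other 7 steps together held 493, 488 and 568 TPM in replicates 1, 2 and 3.

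To ask whether the libraries differed in these genes by more than counting noise, counts were compared with a chi-square test of homogeneity on TMM-scaled library sizes, adjusted over all records tested. The test called 16 of the 20 members, against 54.5% of all 15516 records that passed the filter. It calls abundant records more readily, and all 20 members had a mean count of at least 58. With the filter raised to a mean count of 50 it called 63.8% of all records. Without replicate 1 it called 10 of 20 members, against 29.0% of all records. Without replicate 2 it called 13 members, against 45.0%, and without replicate 3 also 13, against 38.6%. Most of these differences were small in size. The highest CPM of a member exceeded its lowest by a median of 1.38-fold, against 1.45-fold over the 15260 tested records with counts in every library, and 15 of the 20 members stayed under 1.5-fold. The 4 members not called were uroporphyrinogen-III synthase (adjusted p = 0.794), the second ferrochelatase model (0.138), heme oxygenase (0.0725) and the most abundant ferritin (0.0667). The biological coefficient of variation (BCV), the spread between replicates beyond counting noise estimated in edgeR, had a median of 0.210 over the members and 0.263 over all 15816 records whose mean CPM reached 1. Where it reached 10 the medians were 0.204 and 0.214.

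Uroporphyrinogen decarboxylase was the member in which a library stood apart at 2-fold, the 1 of 17 whose mean CPM reached 10, against 4.19% of all 8976 such records. It had 117, 422 and 354 CPM in replicates 1, 2 and 3. Replicate 2 exceeded replicate 1 by 3.60-fold (exact 95% interval 3.35 to 3.87, counting error only) and replicate 3 exceeded it by 3.02-fold (2.81 to 3.24). Between replicates 2 and 3 the ratio was 1.19 (1.14 to 1.25). Its BCV was 0.417, and the adjusted p of the chi-square test was at most 1e-300 with all libraries and 2.94e-12 without replicate 1. Among the 20 members with a mean count of at least 10 the next widest range was 1.84-fold.

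In replicate 1 its log2(CPM + 0.5) lay 1.72 below the mean of the other libraries, a deviation of -1.72, number 120 from the lowest among 8976 records. Of the 209 records at least 2-fold low in replicate 1, 11, itself included, had a mean CPM as high as its own or higher. Neighbouring genes on the same strand did not share the pattern. The record of the ubiquitin ligase HUWE1 (Dapma7bEVm000594sc02385NoSplit), 794 bp away, had 492, 401 and 217 CPM in replicates 1, 2 and 3. A helicase ARIP4-like record (Dapma7bEVm004502sc02385NoSplit), 120 bp away on the other side, had 47.6, 49.2 and 35.5 CPM. The uroporphyrinogen decarboxylase record overlaps no other record, so its reads are not shared with an overlapping model. In replicate 1 the median deviation of myosin heavy chain records was 0.54 (4 of 5 higher), of trypsin -0.13 (23 of 39 lower) and of vitellogenin 0.09 (11 of 18 higher), against 0.02 over all records. Their part in the result was not tested.

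**Figure D2:**
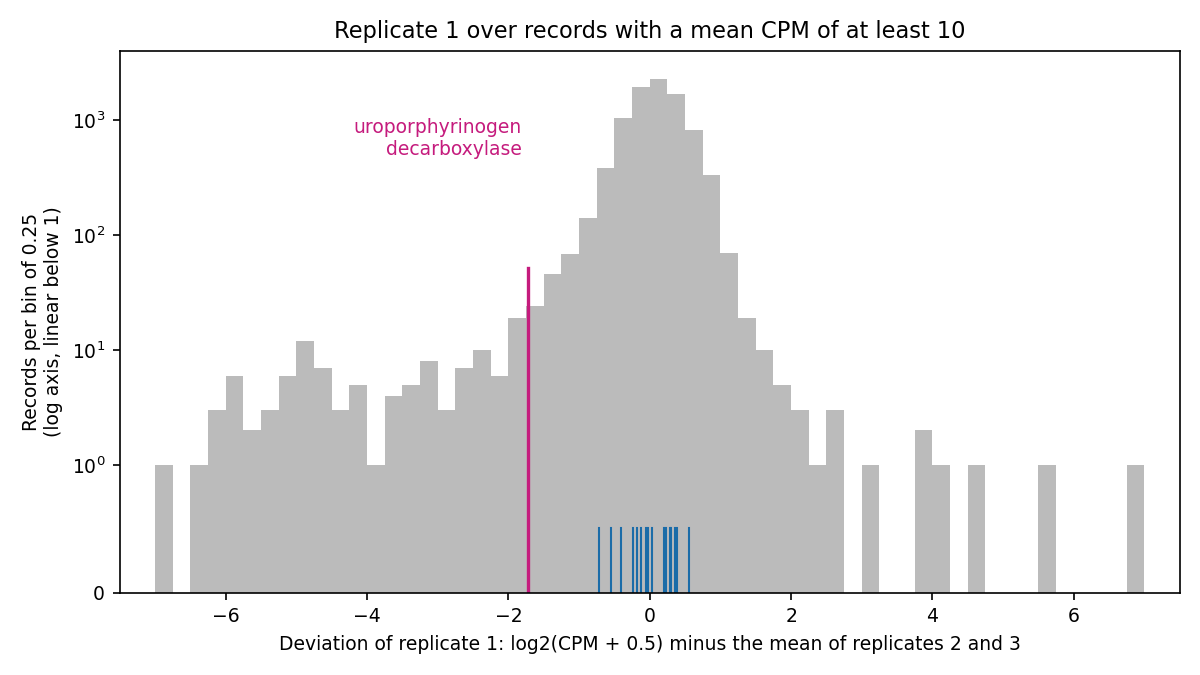
Number of records (vertical axis, logarithmic, linear below 1) by the deviation of replicate 1 from the mean of replicates 2 and 3, in log2(CPM + 0.5), over the 8976 records whose mean CPM reached 10. Short blue lines mark 16 members and the pink line marks uroporphyrinogen decarboxylase at -1.72, outside the range of -0.72 to 0.56 that the others span.

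Iron storage genes were led by a single abundant record. The Ferritin subunit precursor (Dapma7bEVm010891sc01361NoSplit, scaffold01361, 352943 to 354548, plus strand) had 415, 392 and 438 TPM in replicates 1, 2 and 3, the highest level of all members, and was the steadiest of them at 1.06-fold between libraries in CPM. It lay at percentile 98.1 of the 19927 records detected in every library. Next came a ferritin 3-like protein on scaffold00626 (Dapma7bEVm005779sc00626NoSplit, 990511 to 991417, plus strand) with 59.3, 88.9 and 113 TPM. The ferritin heavy chain (Dapma7bEVm005357sc01361NoSplit, scaffold01361, 355892 to 357087, minus strand), the subunit type that in vertebrates oxidises iron for storage, had 80.95, 62.1 and 73.97 TPM. These records thus had no common high or low library: replicate 1 was the highest for the heavy chain and the lowest for the ferritin 3-like protein. Of the 6 tested ferritin records, 2, 0 and 4 were highest by CPM in replicates 1, 2 and 3. In the same order, 2, 3 and 1 were lowest.

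A further ferritin 3-like protein (Dapma7bEVm015553sc01663NoSplit, scaffold01663) had 50.2, 64.6 and 88.1 TPM, with the same order of libraries as the record on scaffold00626. Of the 6 ferritin records within 9786 bp of scaffold02545 (71234 to 81019), 2 were expressed beyond single counts. Dapma7bEVm007877sc02545Split02 had 50.98, 36.8 and 55.3 TPM, and Dapma7bEVm001658sc02545Split02 had 24.8, 17.2 and 16.9 TPM. In the latter replicate 1 was the highest, whereas in the former replicate 2 was the lowest. The chi-square test called 5 of the 6 expressed ferritin records, the Ferritin subunit precursor being the exception. Of all tested records it called 54.5%, and 63.8% of those with a mean count of at least 50. At 1.5-fold, 1 ferritin joined uroporphyrinogen decarboxylase as low in replicate 1, the record on scaffold00626, with 322, 485 and 670 counts (16.9% of all records had a library apart at that threshold, and 4.98% were low in replicate 1). The ferritin records of scaffold01361 and of scaffold02545 lie close together, and reads that fit several related copies could have been split among them.

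Summed over all 14 ferritin records, storage genes held 682, 662 and 787 TPM, or 710 ± 67.0 (SD, n = 3), against 962 ± 101 TPM for the 15 haem synthesis records, whose overlapping models repeat the same loci. All 32 haem and iron records took 0.168% of the counts in replicate 1 (Wilson 95% interval 0.165 to 0.171%), 0.193% in replicate 2 (0.190 to 0.196%) and 0.212% in replicate 3 (0.2095 to 0.215%). Without uroporphyrinogen decarboxylase these shares were 0.157%, 0.152% and 0.175%, so that replicate 1 was no longer the lowest. Intervals cover counting error only. The shares are of library totals, and TPM is scaled to the same total in every library, so neither uses TMM sizes. In replicate 3 the TMM size (9701738) was above the total (9092389), and in replicate 1 it was below (8467026 against 8843488). Shares thus place replicate 3 higher against replicate 1 than TMM-scaled CPM does.

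Transferrins and heme oxygenase were expressed at lower levels. Melanotransferrin (Dapma7bEVm002180sc00158NoSplit, scaffold00158, 56030 to 59386, plus strand), of a transferrin type that is anchored to the cell membrane in mammals, had 21.3, 16.4 and 17.5 TPM. The record described as transferrin (Dapma7bEVm005481sc00512NoSplit, scaffold00512, 2501917 to 2505907, plus strand) was the lowest of the 20 members that passed the count filter, at 2.01, 3.61 and 3.90 TPM from 36, 65 and 76 counts. In CPM, replicate 3 exceeded replicate 1 by 1.84-fold, and the chi-square test called the record (adjusted p = 0.0110). Without replicate 1 that call was lost (adjusted p = 0.939). Heme oxygenase 1 (Dapma7bEVm005735sc00568NoSplit, scaffold00568, 249387 to 250356, plus strand) had 13.6, 11.9 and 17.7 TPM. The transferrin levels were thus far below that of the leading ferritin, whose mean was 415 ± 23.1 TPM against 18.4 ± 2.60 and 3.17 ± 1.02.

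**Figure D3:**
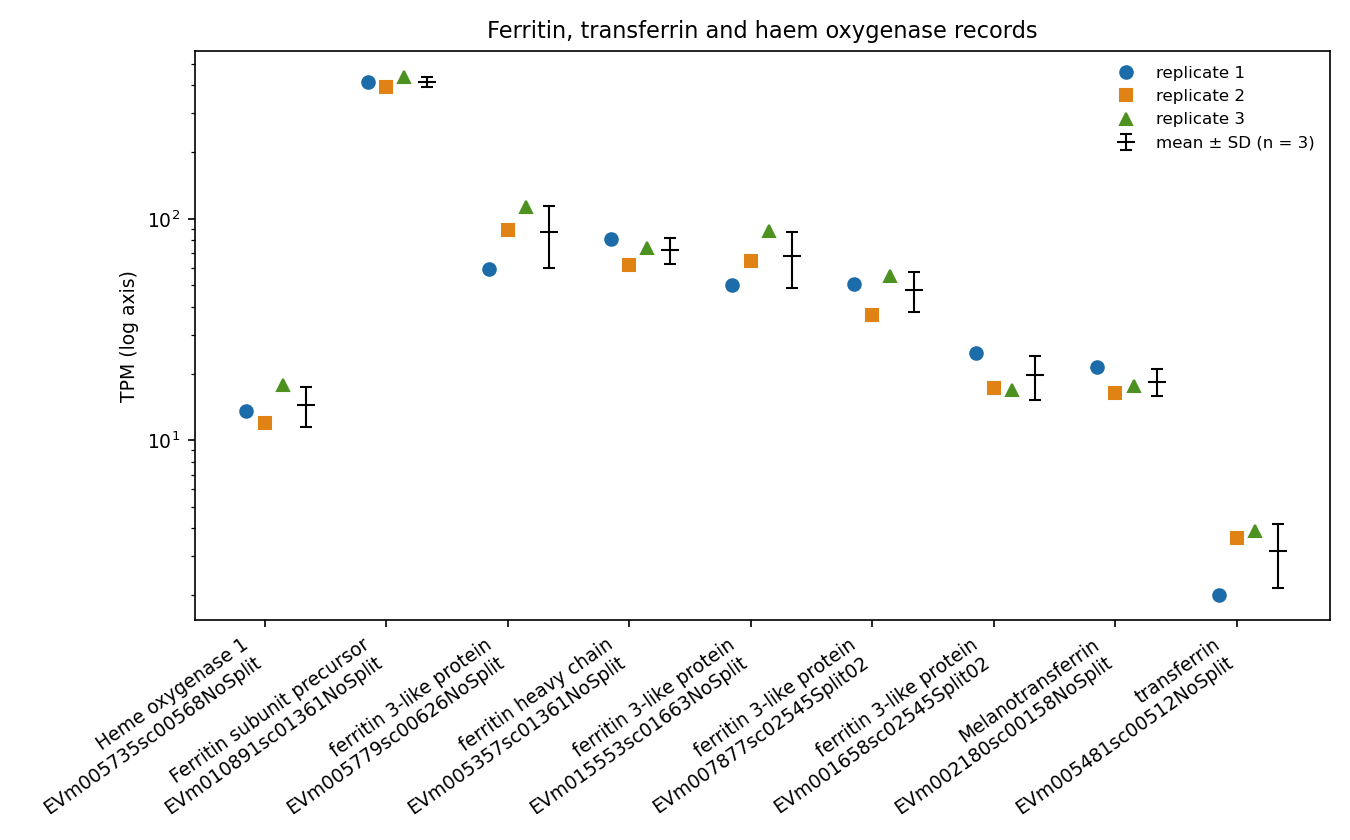
TPM of the heme oxygenase record and of the ferritin and transferrin records whose mean count reached 10, on a log axis. Points are the 3 libraries, and the dash and bar are the mean and SD. The Ferritin subunit precursor lies at 392 to 438 TPM and the record described as transferrin at 2.01 to 3.90 TPM.

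Across the members, values in replicate 3 were more often the highest than the lowest. The median deviation over the 20 members was -0.05, -0.03 and 0.11 on the log2 scale in replicates 1, 2 and 3, against 0.02, 0.01 and 0.02 over all 15816 records. Members were lowest in replicate 1 in 8 cases, in replicate 2 in 8 and in replicate 3 in 4, against 37.1%, 30.0% and 32.9% of all tested records. They were highest in replicate 3 in 10 of 20 cases, against 31.9% of all tested records. The haem synthesis records had medians of -0.13, 0.08 and 0.01 and the ferritins 0.12, -0.14 and 0.16.

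**Figure D4:**
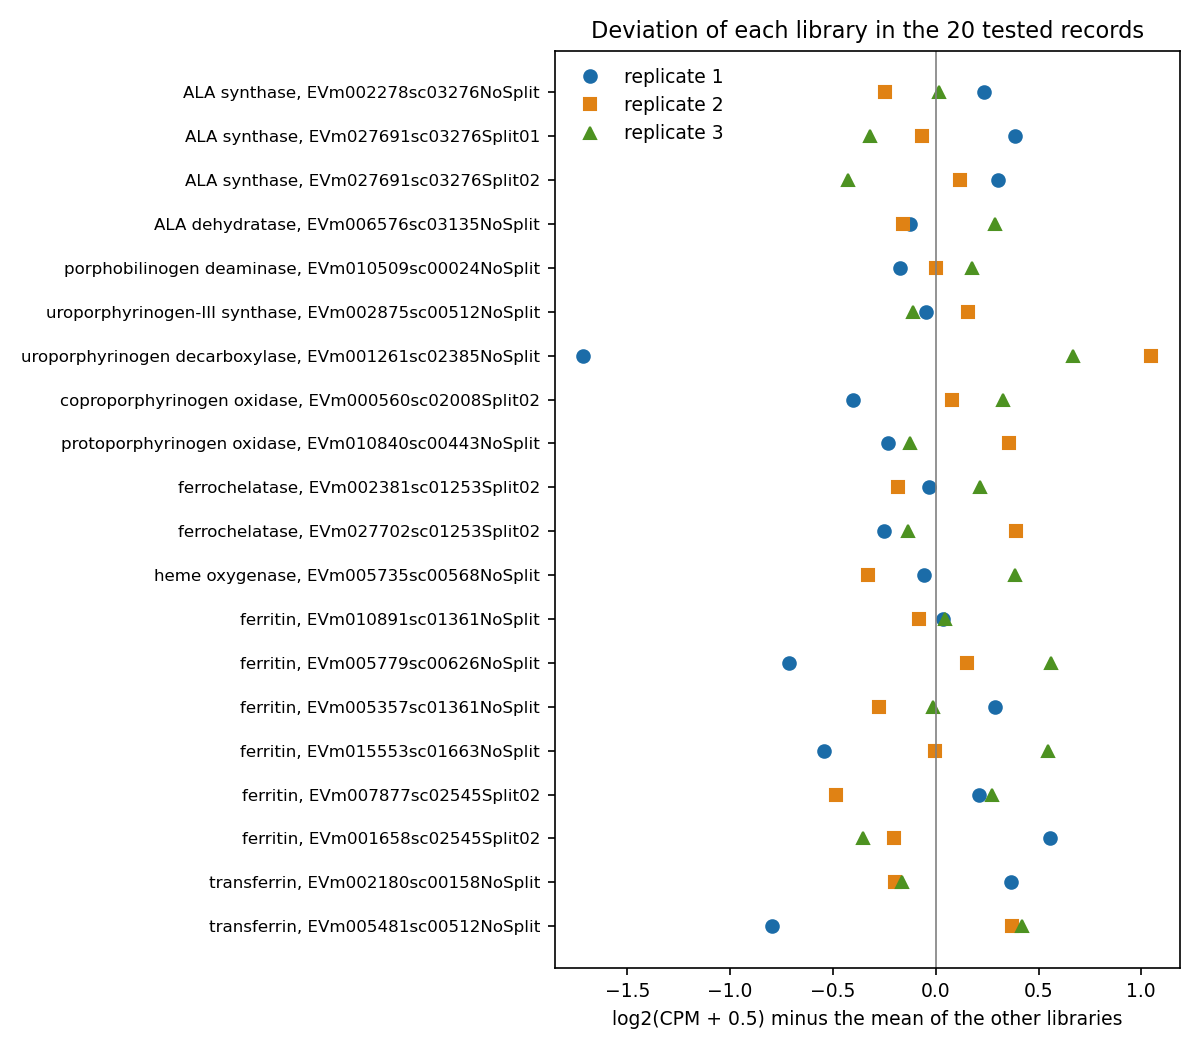
Deviation of each library, as log2(CPM + 0.5) minus the mean of the other libraries (horizontal axis), for the 20 members with a mean count of at least 10, ordered by role. Each point is 1 library. Uroporphyrinogen decarboxylase reaches -1.72 in replicate 1, and the other members lie between -0.79 and 0.56 in that library.

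Genes around the pathway were examined through lists of words in the descriptions. Of the iron-sulfur cluster assembly list, 2 of 7 tested records were called by the chi-square test, of iron transport and sensing 7 of 14, and of haem handling 6 of 11, against 54.5% of all tested records. The word lists also caught a ferredoxin-fold protein and a neuferricin-like record, which are kept in these counts. Mitochondrial aconitate hydratase (Dapma7bEVm002181sc01274NoSplit), an iron-sulfur enzyme of the citrate cycle, led the iron list with 266, 268 and 276 TPM. Cytoplasmic aconitate hydratase (Dapma7bEVm001713sc01830NoSplit), whose vertebrate counterpart becomes an iron-sensing RNA-binding protein when it loses its cluster, had 71.2 ± 14.0 TPM. The leading Malvolio record (Dapma7bEVm010045sc02628NoSplit), named after the Drosophila metal ion transporter, had 26.6 ± 4.37 TPM. The most abundant iron-sulfur record was iron-sulfur cluster assembly 1 homolog (Dapma7bEVm008457sc01396NoSplit), at 55.7 ± 8.60 TPM. Frataxin (Dapma7bEVm008044sc02827NoSplit), which acts in cluster assembly in mitochondria, was steady at 26.9 ± 1.62 TPM.

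Low values in replicate 1 were also found outside the members, in 1 of 7 iron-sulfur, 0 of 10 iron transport and sensing and 2 of 8 haem handling records whose mean CPM reached 10, against 2.33% of all 8976 such records. The widest difference was in a heme-binding protein 2-like record (Dapma7bEVm001221sc01361NoSplit, scaffold01361, 1687134 to 1690273, minus strand), the most abundant of the haem handling list by mean TPM, with 75, 1699 and 1117 counts in replicates 1, 2 and 3, a 22.6-fold range of CPM. That record overlaps 3 others, so its reads may be divided among them. Another record of that description (Dapma7bEVm000383sc00243NoSplit) had 1038, 1117 and 1292 counts, close to each other. In replicate 1 Dapma7bEVm000383sc00243NoSplit was the more abundant, at 54.3 TPM against 6.96 TPM. Heme-binding protein 2 (Dapma7bEVm002233sc00261NoSplit) had 150, 299 and 257 counts, or 17.7, 35.2 and 26.5 CPM, and was also lowest in replicate 1, though less than 2-fold below both others. A further heme-binding protein 2-like record (Dapma7bEVm006100sc00243NoSplit) had only 1, 4 and 5 counts. Of the 11 tested haem handling records 8 were lowest in replicate 1, against 37.1% of all tested records. These 8 include records that the chi-square test did not call, such as Dapma7bEVm000383sc00243NoSplit (adjusted p = 0.167). A feline leukemia virus subgroup C receptor-related protein 2 record (Dapma7bEVm005906sc03376NoSplit), of a family whose vertebrate members export haem or carry choline, had 14.3, 43.8 and 39.0 CPM. On the same scaffold, Dapma7bEVm007015sc03376NoSplit and Dapma7bEVm002272sc03376NoSplit carry that description. They had 8.86, 11.3 and 10.3 CPM and 5.20, 7.30 and 8.14 CPM. Both were lowest in replicate 1 by less than 2-fold, and the chi-square test called neither (adjusted p = 0.361 and 0.0881). The iron-sulfur assembly protein IscA-like 2 (Dapma7bEVm008466sc00024NoSplit) had 4.49, 11.1 and 14.5 CPM. Its mean of 10.03 CPM lay just above the limit of 10, and only through replicates 2 and 3. The 1 of 7 iron-sulfur records thus rests on a record at that limit and cannot be weighed against the 2.33%. Dapma7bEVm001221sc01361NoSplit, at 8.86 CPM in replicate 1, also passed that limit only through replicates 2 and 3. The 2 of 8 haem handling records thus cannot be weighed against the 2.33% either. Dapma7bEVm001221sc01361NoSplit, Dapma7bEVm005906sc03376NoSplit and IscA-like 2 were named because a library stood apart in them at 2-fold. That rule also singled out uroporphyrinogen decarboxylase, and these records lie on other scaffolds than that gene.

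**Figure D5:**
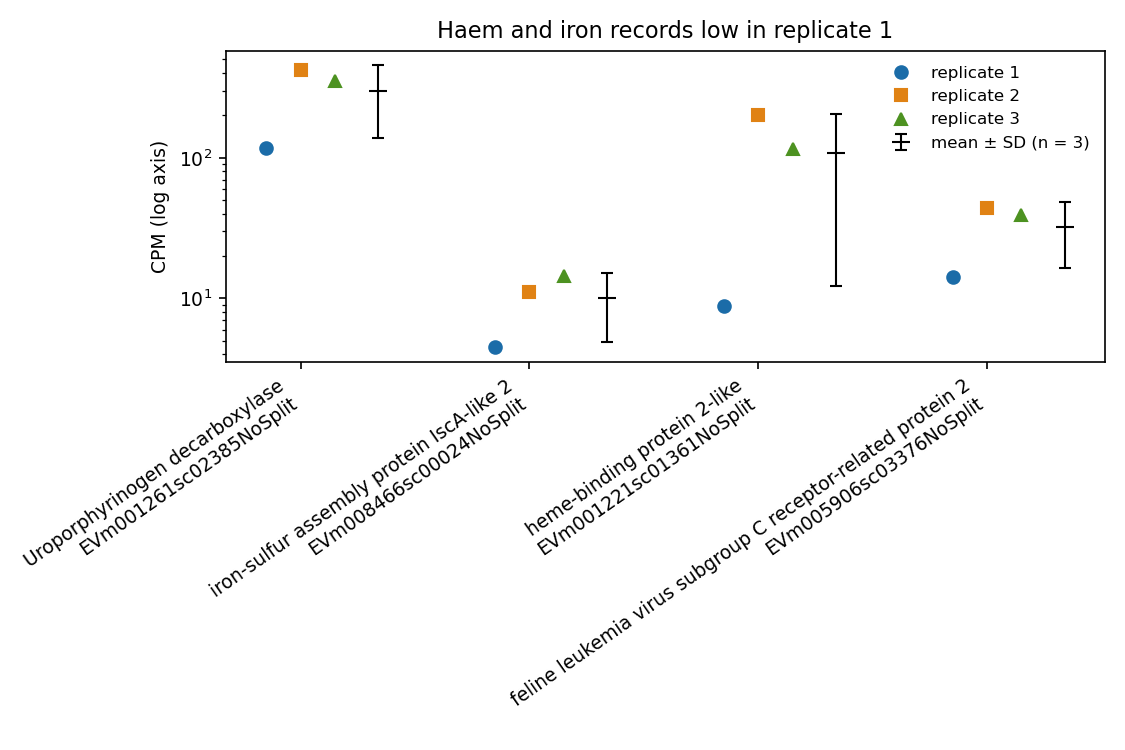
CPM, on a log axis, of the records of the members and of the surrounding lists that were at least 2-fold lower in replicate 1 than in both other libraries. Points are the 3 libraries, and the dash and bar are the mean and SD. Uroporphyrinogen decarboxylase had 117 CPM in replicate 1 and 422 and 354 in the others.

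Haemoglobin, for which haem is the cofactor, was far more abundant than its suppliers. The leading 2-domain hemoglobin (Dapma7bEVm020057sc01361NoSplit) had 7758, 9421 and 11499 TPM and the next record (Dapma7bEVm028977sc01361NoSplit) 6340, 5672 and 6551 TPM. The 32 records of the haemoglobin list together held 16962, 17130 and 21240 TPM. Its words also caught neuroglobin-like records and records described only as globin, which are kept in these sums. Both leading records overlap others, so that their reads may be divided. The leading 2-domain hemoglobin was lowest in replicate 1 and the next record in replicate 2. Of the 15 tested records of this list 11 were lowest in replicate 2 and 4 in replicate 1. However, 12 of the 15 overlap other records and may share reads. The median deviation over the 15 was 0.14 in replicate 1 and -0.38 in replicate 2. Over the 3 that overlap no other record the median was -0.73 and 0.50, the opposite order, but these 3 differed among themselves. Dapma7bEVm007891sc00044NoSplit had -0.73 and 0.50, and Dapma7bEVm011664sc00626NoSplit had -1.22 and 0.61 from only 10, 29 and 33 counts. Dapma7bEVm007706sc00024NoSplit went the other way, at 0.75 and -0.79 from 55, 25 and 44 counts. The part of overlap in this was not tested. On scaffold01361, 19 haemoglobin records (1120871 to 1143507) share a scaffold with the 4 ferritin records at 350623 to 357087, at a distance of 763784 bp. The heme-binding protein 2-like record low in replicate 1 lies on the same scaffold.

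The deposited GO (gene ontology) terms grouped the members as their names do. The term intracellular sequestering of iron ion was carried by 11 members and by no other record, and heme biosynthetic process by 7 of the 10 records that carry it. These terms came with the descriptions from the same annotation, so they are no separate evidence.

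The 3 records matched through "transferring" are not iron genes. They were a pyruvate dehydrogenase phosphatase (21.2 ± 1.45 TPM), a pyruvate dehydrogenase kinase (15.2 ± 2.19 TPM), enzymes that switch pyruvate dehydrogenase on and off, and a glycine dehydrogenase without counts.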

How the data were processed

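Raw total counts per gene record were deposited by the authors, who mapped paired reads in CLC Genomics Workbench 12 to a wFleaBase genome of D. magna. Genome version and strand setting: not given in the sources used here. Deposited RPKM and TPM values were computed by the authors from gene length. A deposited signal named CPM equals the counts divided by the TMM effective library sizes computed here. Blast2GO descriptions were used as deposited.

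TMM factors and the BCV (intercept-only model) were computed in edgeR 4.0.16 (R 4.3.3). Variation between libraries was tested by chi-square for homogeneity where the mean count reached 10. Adjustment was by Benjamini-Hochberg over all records, with calls at 0.05. A library stood apart where both others were 2-fold or more away on the same side (mean CPM from 10). Deviations used log2(CPM + 0.5) where the mean CPM reached 1. Neighbouring steps were compared by an exact sign-flip test on TPM. Scripts were tested on simulated data. Median-of-ratios factors came from DESeq2 1.42.0. Other steps used scipy 1.17.1, pandas 2.3.3 and numpy 2.4.6 in Python 3.11.15, and figures matplotlib 3.10.9.

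Named were the most abundant record of each role and list, the 3 leading ferritins, the transferrins and records in which a library stood apart. Other ferritins, the further ALA synthase and ferrochelatase models, frataxin, cytoplasmic aconitate hydratase and Malvolio were added after their values were seen. So were the further heme-binding, receptor-related and haemoglobin records and the neighbours of uroporphyrinogen decarboxylase. The members and lists were chosen with earlier results of these data known. The chi-square p-values measure departure from counting noise among these libraries, and grow smaller with depth. Sign-flip p-values cannot go below 0.25 with 3 libraries. Both cover these samples only.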

Additional observations from a re-analysis of the deposited data

How the results depend on the processing

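The 16 calls of variation between libraries were kept with DESeq2 size factors and with the count filters of 50 and 1, and became 18 with library totals. In records that overlap no other record 8 of 10 members were called, fewer members being tested. For DESeq2 factors, library totals, the filter of 1 and records without overlap, the share of all records called is not given. These counts thus cannot be weighed against all records. Leaving out 1 replicate gave 10 to 13 calls, all among the 16. The count of members in which a library stood apart was 2 at 1.5-fold, and 0 to 1 when 1 replicate was left out, an alternative added after seeing the data. It was 0 without replicate 1, and the member was uroporphyrinogen decarboxylase. Its lead over ALA synthase turned to -1.10 (log2) when all records of a step were summed, which adds the overlapping ALA synthase models, and ranged from -0.19 to 0.89 when a replicate was left out, the negative value being that without replicate 2. Porphobilinogen deaminase against ferrochelatase turned to -0.076 with summed records and ranged from -0.028 to 0.082. The other 5 pairs kept their direction throughout, and RPKM gave the same ratios as TPM. Median deviations and the median BCV over all members moved by less than the spread between replicates in each alternative, and of the deviations of single lists 5 moved more and 184 did not. Library totals shifted the deviations of all records by a median of -0.09, -0.04 and 0.14 in replicates 1, 2 and 3. Ranked by CPM in place of TPM, 13 of the 20 members changed place. Depth limits the records of single counts, which cannot be compared. No paired analysis was possible because the series holds 1 group.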
